A study of Mus musculus with 6 samples.

Results

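The cyclin-dependent kinase (CDK) inhibitors and D-type cyclins, with the kinases they act on, were examined in bone marrow stromal cells (BMSCs) that lack the microRNA miR-188. The set holds 10 genes listed by name: the Cip/Kip inhibitors Cdkn1a, Cdkn1b and Cdkn1c, the INK4 inhibitors Cdkn2b and Cdkn2c, the D-type cyclins Ccnd1, Ccnd2 and Ccnd3, and the kinases Cdk4 and Cdk6. Each gene was read by its brightest probe set (mean over the 6 arrays) among those that the platform annotation pairs with 1 symbol only. This gave 9 of the 10 genes out of 19938 tested genes. The annotation pairs the probe set of Cdkn1a with a second symbol, so Cdkn1a was not analysed here.

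Wild-type mice gave the cells for 3 arrays (WT), and miR-188 knockout mice those for the 3 others (labelled 188KO, KO188 here), all 6 months old and on the C57BL/6 background. BMSCs are the adherent cells of the marrow that can form bone or fat. Both groups were grown in the same osteogenic medium, with 10% fetal calf serum, 100 nM dexamethasone, 10 mM beta-glycerophosphate and 0.05 mM ascorbic acid phosphate, and total RNA was read on Affymetrix arrays. The labels say biological replicate without stating whether each array had its own mouse or culture, so the p-values measure only the spread between these samples, which may be technical. The labels do not say which cells or which part of the locus the deletion covers, nor the culture day, and genotype cannot be told apart from any culture or batch difference that the 3 KO188 samples share.

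Progress from the G1 phase of the cell cycle into DNA replication is set by kinases that need a cyclin partner. D-type cyclins are made in response to growth factors and activate Cdk4 and Cdk6, which phosphorylate the retinoblastoma protein and its relatives and so release E2F transcription factors. INK4 proteins bind Cdk4 and Cdk6 and keep D-type cyclins off them, whereas Cip/Kip proteins bind assembled cyclin and kinase complexes and block above all those of Cdk2. In the osteoblast lineage, growth slows as cells mature, and Cip/Kip inhibitors are known to take part in that exit.

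The microRNA that was knocked out gives 2 mature products. Their sequences are printed because they define the genotype compared here (RefSeq, GRCm38.p6, minus strand, chrX:7248031-7248051 for the 5p and chrX:7247992-7248012 for the 3p product). Capitals mark the seed, bases 2 to 8, which pairs with target transcripts.
mmu-miR-188-5p: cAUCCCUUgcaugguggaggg
mmu-miR-188-3p: cUCCCACAugcaggguuugca
The seeds of the products differ. Target sites in the transcripts of the CDK inhibitors and cyclins were not searched, since no transcript sequence was used here.

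Start sites of 7 of the 10 genes are in the RefSeq promoter table (GRCm38.p6), with 10 starts in all. The 250 bases before the start are shown for the 4 genes with the largest differences between the genotypes and for Cdk4, whose window holds the most matches. The motifs searched, on both strands, were the GC box GGGCGG, the E2F-type sites TTTCCCGC, TTTGGCGC, TTTCGCGC and TTTGCCGC, the AP-1 site TGACTCA, the FOXO-type site GTAAACA, the E-boxes CAGCTG and CACGTG, and the SMAD-type site GTCTAGAC. Capitals mark every match, and no matches overlapped in these windows. The windows are Ccnd3, chr17:47504801-47505050, plus strand, the more upstream of its 2 listed starts; Cdkn2b, chr4:89311033-89311282, minus strand; Cdk6, chr5:3343643-3343892, plus strand; Cdkn1b, chr6:134920151-134920400, plus strand; and Cdk4, chr10:127063285-127063534, plus strand.
Ccnd3: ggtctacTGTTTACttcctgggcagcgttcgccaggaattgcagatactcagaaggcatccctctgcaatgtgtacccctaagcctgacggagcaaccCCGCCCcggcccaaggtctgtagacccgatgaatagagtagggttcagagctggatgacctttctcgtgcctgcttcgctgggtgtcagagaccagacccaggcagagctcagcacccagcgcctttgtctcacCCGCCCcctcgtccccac
Cdkn2b: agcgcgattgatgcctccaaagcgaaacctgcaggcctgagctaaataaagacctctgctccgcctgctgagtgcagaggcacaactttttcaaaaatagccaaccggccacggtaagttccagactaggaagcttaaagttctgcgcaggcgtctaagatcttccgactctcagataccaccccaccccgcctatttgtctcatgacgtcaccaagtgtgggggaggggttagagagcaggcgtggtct
Cdk6: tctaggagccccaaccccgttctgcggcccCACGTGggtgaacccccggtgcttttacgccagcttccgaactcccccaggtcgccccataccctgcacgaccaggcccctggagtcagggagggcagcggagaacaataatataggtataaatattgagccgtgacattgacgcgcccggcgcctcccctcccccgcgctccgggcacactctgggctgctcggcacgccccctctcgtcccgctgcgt
Cdkn1b: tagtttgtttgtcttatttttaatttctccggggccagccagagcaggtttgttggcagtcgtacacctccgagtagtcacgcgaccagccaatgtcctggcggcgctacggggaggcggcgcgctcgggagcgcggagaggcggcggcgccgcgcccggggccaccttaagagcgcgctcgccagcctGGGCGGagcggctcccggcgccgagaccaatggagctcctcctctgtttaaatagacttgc
Cdk4: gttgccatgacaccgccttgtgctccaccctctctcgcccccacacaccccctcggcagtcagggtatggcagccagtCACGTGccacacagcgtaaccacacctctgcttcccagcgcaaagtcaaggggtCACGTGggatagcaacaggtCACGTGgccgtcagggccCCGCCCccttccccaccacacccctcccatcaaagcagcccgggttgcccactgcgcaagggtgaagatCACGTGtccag
A GC box lay in the windows of Ccnd3, Cdkn1b and Cdk4, and 32.7% of all 32851 promoters of the table hold one. CACGTG, the E-box that Myc proteins bind, was found 4 times before Cdk4 and once before Cdk6, against 6.02% of all promoters with at least 1 and 7 promoters of the table with 4 or more. The Ccnd3 window also held the FOXO-type letters, which 3.17% of promoters hold. The Cdkn2b window held none of these letters. The second Ccnd3 start (1 GC box), the 2 starts of Cdkn2c (3 GC boxes before 1 of them and no match before the other) and the 2 starts of Cdkn1a (2 GC boxes before 1 of them and no match before the other) held no E2F-type, AP-1, FOXO-type, E-box or SMAD-type letters. The Cdk6 window lies inside the annotated gene, which begins further upstream, at chr5:3341004. These matches describe the letters in the windows and say nothing of binding.

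Among the 9 measured genes, 4 were higher and 3 lower in KO188, and the 2 others did not pass the test. The test was limma's moderated test over all genes with Benjamini-Hochberg adjustment and a threshold of 0.05. Cdkn1b, Cdkn2b, Ccnd2 and Ccnd3 rose, Cdkn2c, Ccnd1 and Cdk6 fell, and Cdkn1c and Cdk4 did not pass. The INK4 inhibitors and the D-type cyclins thus held changes in both directions. Of the Cip/Kip inhibitors and of the kinases, 1 gene of each measured pair passed. The background was high: 29.8% of all tested genes passed (13.3% higher and 16.5% lower). Among the 3191 genes above the 84th percentile of mean level, where 8 of the 9 genes lie, 59.8% passed (17.6% higher and 42.1% lower), a comparison added after the data were seen. Read against the bright genes, 7 calls among 9 genes do not single out the set. The groups did not overlap for 8 of the 9 genes, with Cdkn1c the exception; 41.5% of all tested genes and 78.3% of the bright ones showed no overlap. The median size of change, regardless of sign, was 0.21 on the log2 scale over the 9 genes, 0.127 over the bright genes and 0.076 over all tested genes.

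**Figure D1:**
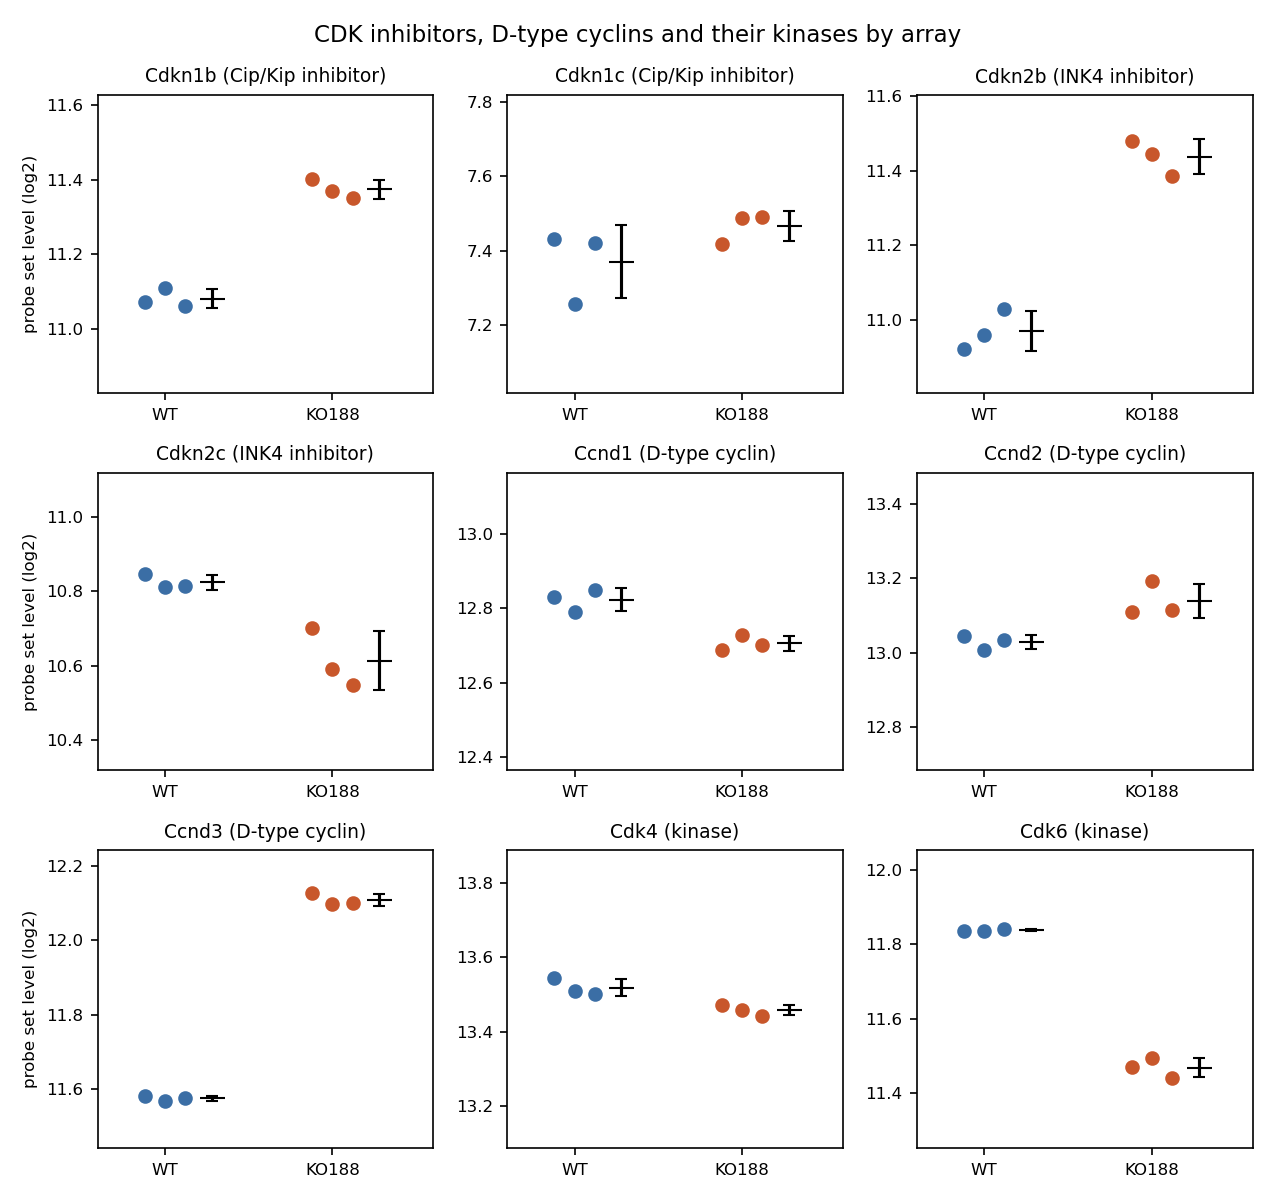
Probe set level (log2) of each of the 9 measured genes on the 3 WT arrays (blue) and the 3 KO188 arrays (orange), 1 point per array, with the group mean and SD in black; every panel spans the same log2 range around its own centre. WT and KO188 points are separate for every gene except Cdkn1c, and lie farthest apart for Ccnd3, 11.57 to 11.58 in WT against 12.10 to 12.13 in KO188.

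Cdkn2b encodes the INK4 protein p15, an inhibitor of Cdk4 and Cdk6 known to be induced by TGF-beta in epithelial cells. Its log2 level was 10.92, 10.96 and 11.03 on the WT arrays and 11.48, 11.45 and 11.39 on the KO188 arrays. Every KO188 array lay above every WT array, and the gap between the groups exceeded the range within either. The rise was 0.47 on the log2 scale (SE 0.040, 1.38-fold, limma adjusted p = 2.4e-04), and 4.70% of tested genes changed by more in either direction. The other measured INK4 gene of the set moved the opposite way. Cdkn2c, which encodes p18, was at 10.85, 10.81 and 10.81 in WT and at 10.70, 10.59 and 10.55 in KO188. The groups were separate, though the KO188 arrays were spread more widely (SD 0.079) than the WT arrays (SD 0.020). The fall was -0.21 (SE 0.043, limma adjusted p = 0.011).

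The INK4 family has a further pair of genes, which were read as neighbours of the set. Cdkn2a, which shares a locus with Cdkn2b and encodes p16 and, in another frame, the p53 activator p19Arf, was at 9.84 ± 0.06 (SD, n = 3) in WT and 10.01 ± 0.01 in the 3 KO188 samples, a rise of 0.17 (limma adjusted p = 0.011). The gene was read by 1 probe set chosen by symbol, without regard to its transcripts, so p16 and p19Arf were not told apart. Cdkn2d, which encodes the remaining INK4 protein, fell from 8.19 ± 0.05 to 7.96 ± 0.08 (log2 change -0.23, limma adjusted p = 0.013). The call of Cdkn2d was lost without WT replicate 1 or WT replicate 3. The chromosome 4 neighbours Cdkn2a and Cdkn2b were thus both higher in KO188, and Cdkn2c and Cdkn2d both lower.

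Cdkn1b encodes p27, a Cip/Kip protein that binds cyclin and Cdk2 complexes and accumulates in resting cells. It measured 11.07, 11.11 and 11.06 in WT and 11.40, 11.37 and 11.35 in KO188. All KO188 values were above all WT values, with SDs of 0.025 in each group. The rise was 0.29 (SE 0.028, 1.23-fold, limma adjusted p = 3.9e-04). A second, dimmer Cdkn1b probe set read 8.15, 8.17 and 7.95 in WT and 8.42, 8.28 and 8.42 in KO188. Its change had nearly the same size, 0.28, and its groups did not overlap, but among all probe sets it missed the threshold (limma adjusted p = 0.053), where the brighter one passed (0.0016). Cdkn1c, the imprinted gene of p57, lay at 7.43, 7.26 and 7.42 in WT and at 7.42, 7.49 and 7.49 in KO188. WT and KO188 overlapped, with 1 WT array lower than the others. The difference of 0.09 did not pass (95% interval -0.033 to 0.22, limma adjusted p = 0.25), an interval that holds both no change and a small rise. Its mean level ranked at the 42.7th percentile, above the guide for genes that are not expressed (6.72, below which 95% of 1194 odorant and pheromone receptor genes lay).

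The D-type cyclins did not move together. Ccnd3, the cyclin of the family most tied to differentiating cells in several lineages, had log2 levels of 11.58, 11.57 and 11.58 in WT and of 12.13, 12.10 and 12.10 in KO188. The arrays within a group almost coincided, and the step between the groups was many times the spread within them (SD 0.0058 in WT and 0.015 in KO188). Ccnd3 rose by 0.53 (SE 0.024, 1.45-fold, limma adjusted p = 1.5e-05), and 3.70% of tested genes had a larger change. Ccnd2 was at 13.05, 13.01 and 13.03 in WT and at 13.11, 13.19 and 13.11 in KO188. The groups were close but did not overlap. The rise was 0.11 (SE 0.032, limma adjusted p = 0.043), with 37.5% of tested genes changing by more. Ccnd1, the classic growth factor and Wnt responsive cyclin gene, was at 12.83, 12.79 and 12.85 in WT and at 12.69, 12.73 and 12.70 in KO188. It fell by 0.12 (SE 0.028, limma adjusted p = 0.021), and its groups too were close without overlap.

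The calls of Ccnd1 and Ccnd2 lay near the threshold. Most fits with 1 array left out, which also hold fewer arrays, lost them, as did a change of scaling for each gene. Ccnd2 lost its call when any WT array, KO188 replicate 2 or KO188 replicate 3 was left out (adjusted p = 0.064 to 0.13 among these) and kept it without KO188 replicate 1 (0.0499). With each array centred on its median, the Ccnd2 change was 0.058 (adjusted p = 0.18). Ccnd1 lost its call when replicate 1 or replicate 3 of either genotype was left out (adjusted p = 0.052 to 0.071) and with quantile normalization, where its change was -0.066 (adjusted p = 0.14). Ccnd3 passed under each of its 15 alternatives, with a change between 0.48 and 0.57.

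Of the kinases, Cdk6 was lower in KO188, while the difference in Cdk4 did not pass. Cdk6 is the D-type cyclin kinase whose forced expression is known to hold back differentiation in mouse osteoblast cultures. Its level was 11.84 on each WT array and 11.47, 11.49 and 11.44 on the KO188 arrays. The WT arrays were alike to within 0.01 while the KO188 arrays all lay well below them. The fall was -0.37 (SE 0.026, 0.77-fold, limma adjusted p = 1.0e-04), larger in size than the change of all but 7.33% of tested genes. Cdk4 read 13.55, 13.51 and 13.50 in WT and 13.47, 13.46 and 13.44 in KO188. Its groups were separate by a narrow margin. The difference of -0.06 did not pass (95% interval -0.12 to 0.00073, limma adjusted p = 0.14). Under 2 of 15 alternatives Cdk4 did pass as lower, with median centring (-0.11, adjusted p = 0.022) and with an intensity trend in the variance model (adjusted p = 0.014).

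**Figure D2:**
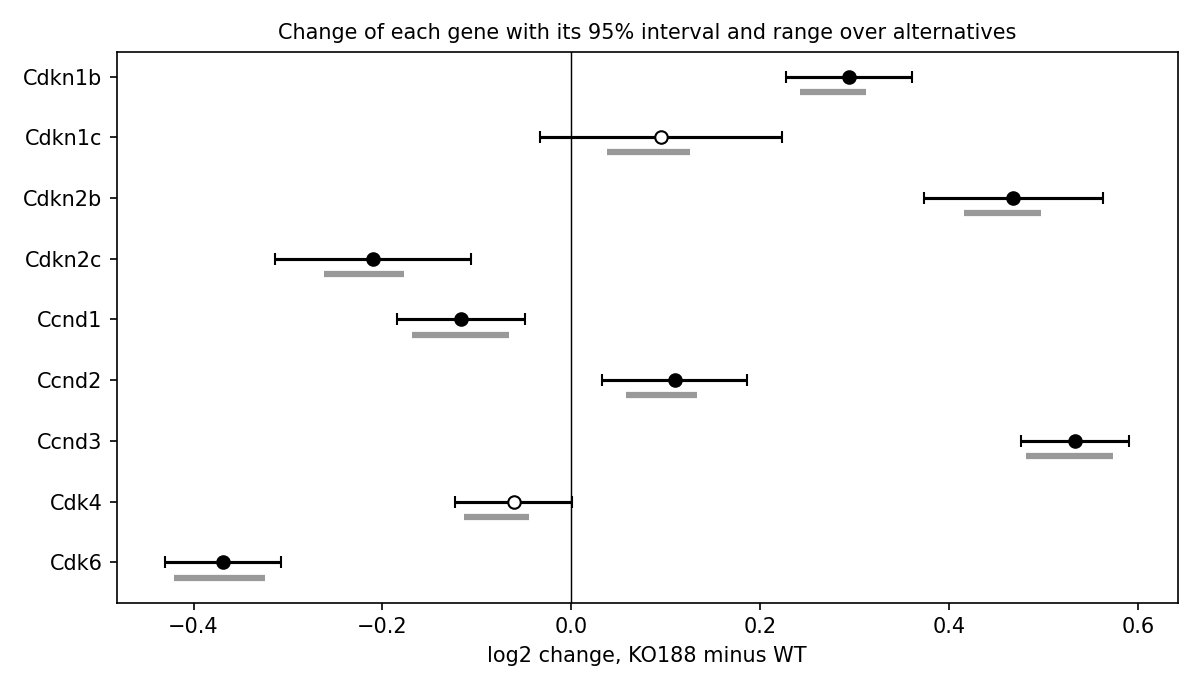
Log2 change of each gene, KO188 minus WT, with the 95% interval of limma's fit (circles with whiskers; filled where the adjusted p was under 0.05, open otherwise) and, as grey bars, the range over the alternative settings. The bars of Cdkn2b, Cdkn1b, Ccnd3, Cdkn2c and Cdk6 stay well off 0, and those of Ccnd1, Ccnd2, Cdk4 and Cdkn1c come closer to it without crossing it.

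Cdkn1b, Cdkn2b, Cdkn2c, Ccnd3 and Cdk6 passed under each of their 15 alternatives, and none of the 9 genes changed sign under any alternative. Most alternatives could not change a sign. Filters on dim genes, variance models, the replicate block and single probe set tests leave the size of change as it is. Leaving out 1 array cannot turn the sign of a gene whose groups do not overlap. The unchanged signs thus bear mainly on the scaling alternatives. The smallest sizes met were 0.24 for Cdkn1b, 0.42 for Cdkn2b, -0.18 for Cdkn2c, 0.48 for Ccnd3 and -0.32 for Cdk6. The Cdkn2c call was the nearest of these to the threshold, with an adjusted p up to 0.047, met without WT replicate 1.

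**Figure D3:**
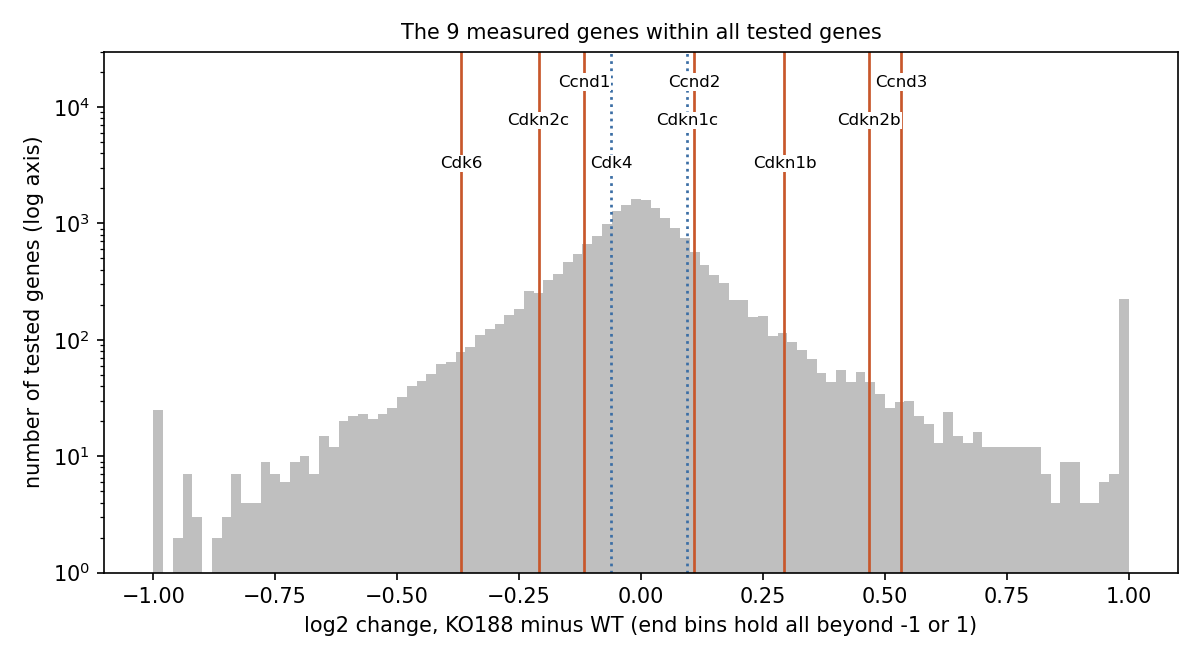
Number of tested genes (log axis) by log2 change, KO188 minus WT, with the 9 genes marked by vertical lines (orange and solid where the test was passed, blue and dotted where not). Ccnd3, Cdkn2b and Cdk6 lie in the flanks of the distribution, and Cdk4, Cdkn1c, Ccnd2 and Ccnd1 near its centre.

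The genes with the profile most like that of Ccnd3, the gene of the set with the largest rise, were Prkg1, Ifitm3 and Zcchc2. Likeness was the Euclidean distance between the 6-array profiles after each gene was centred on its own mean. The distances were 0.015, 0.035 and 0.037 on the log2 scale, and the changes of the 3 genes were 0.52, 0.56 and 0.54. Prkg1 encodes a cGMP-dependent protein kinase and Ifitm3 an interferon-induced membrane protein. For Cdk6, with the largest fall, they were Sc5d (distance 0.018, change -0.37), a sterol synthesis enzyme gene, Iqgap1 (0.019, -0.36), which encodes a cytoskeletal scaffold, and Ankrd10 (0.028, -0.39). With 6 arrays in 2 groups, these distances mostly reflect the step between the groups.

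The other genes of the pathway were described by role, from lists with 133 measured genes of 140 entries. The shares to set beside each list were 13.3% higher and 16.5% lower calls over all tested genes. Among the genes above the 84th percentile of mean level they were 17.6% and 42.1%. Downstream of Cdk4 and Cdk6, 7 of 13 genes of pocket proteins, E2F factors and their partners fell and 1 rose (median change -0.17). Tfdp1, the dimerisation partner of E2F factors, fell from 11.66 ± 0.01 (SD, n = 3) to 9.97 ± 0.07 (n = 3), a change of -1.69 (limma adjusted p = 7.4e-07). E2f7, which encodes a repressor among the E2F proteins, fell by 0.58. The 1 that rose was the pocket protein gene Rbl1 (0.11, limma adjusted p = 0.019), a call lost without WT replicate 1 or WT replicate 3.

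Of the 9 genes of cyclins E and A, Cdk2 and its regulators, 2 rose and 3 fell. The cyclin E genes changed in opposite directions, Ccne1 by 0.33 and Ccne2 by -0.43. Wee1, the gene of a kinase that restrains CDKs, rose by 0.19, while Ccna2 fell by 0.23 and Cdk2 fell by 0.18. Among S phase targets of E2F, 13 of 21 fell and 1 rose, with a median of -0.19. Lower calls made up 16.5% of all tested genes and 42.1% of those above the 84th percentile of mean level. Rrm2, which encodes a subunit of ribonucleotide reductase, fell by 0.52, and Pola1, of DNA polymerase alpha, fell by 0.55; the one that rose was the licensing factor gene Cdt1 (0.14). All 17 measured genes of G2 and mitosis fell, by 0.12 to 0.54 with a median of -0.32, against 16.5% lower calls over all tested genes and 42.1% among the genes above the 84th percentile of mean level. Mki67 went from 12.17 ± 0.04 (SD, n = 3) to 11.63 ± 0.04 (n = 3), and Bub1, a guard of chromosome attachment, fell by 0.38. The count of 17 lower calls was the same in each of the 6 fits with 1 array left out.

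Genes acting on the stability and folding of these proteins were mixed. Of 13 genes of ubiquitin ligases and adaptors, 4 rose and 4 fell. Cks1b, whose product helps the ligase subunit Skp2 to recognise phosphorylated p27, had the largest change of them, from 12.72 ± 0.02 (SD, n = 3) to 11.95 ± 0.04 (n = 3), a fall of 0.77 (limma adjusted p = 1.1e-05). Ddb1, an adaptor of cullin ligases, fell by 0.23. Both measured chaperone genes fell, Hsp90aa1 by 0.27 and Cdc37, the adaptor that brings kinases such as Cdk4 to Hsp90, by 0.17. Protein levels were not measured.

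**Figure D4:**
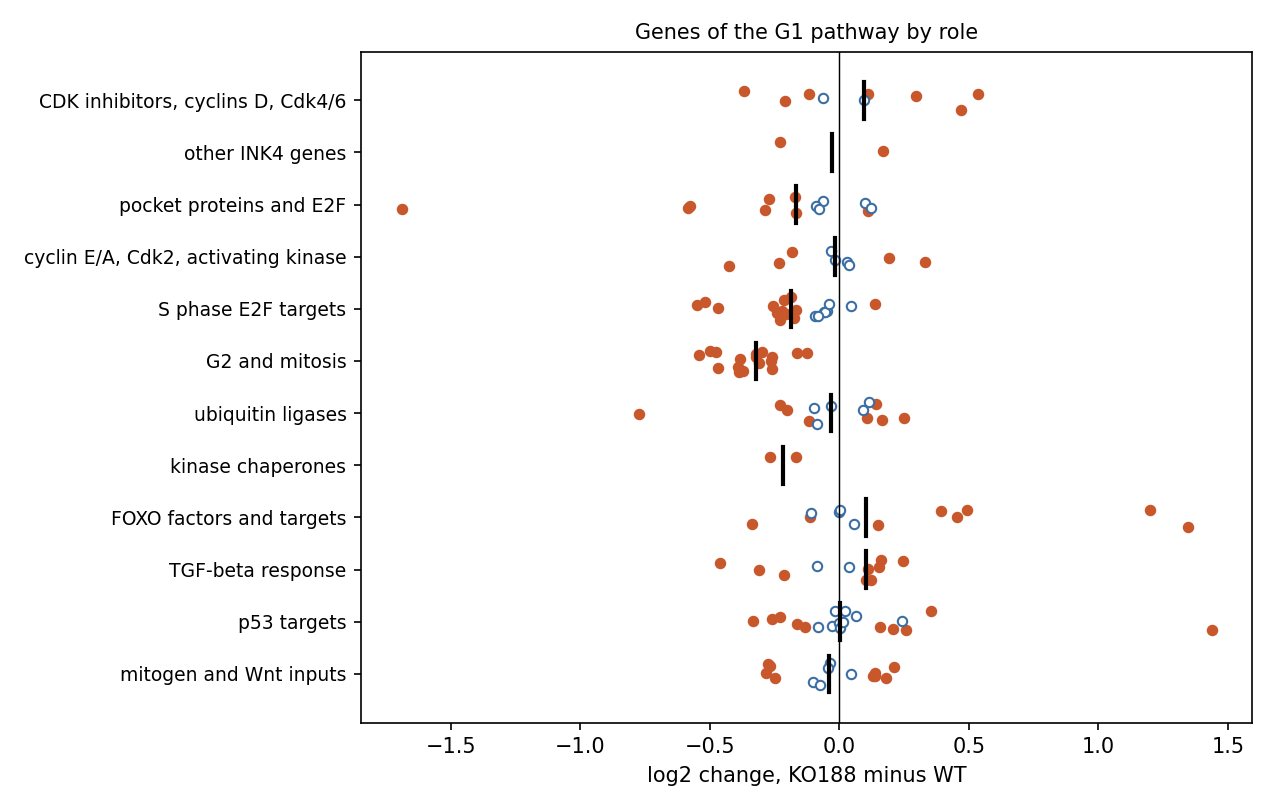
Log2 change, KO188 minus WT, of each measured gene, with the CDK inhibitors, D-type cyclins and kinases in the top row and the 11 other pathway lists below, without the cell type markers (orange, passed limma's test; open blue, did not pass; black bar, median of the list). Every mitosis gene lies left of 0, the top row spreads to both sides, and the farthest points among these pathway lists are Tfdp1 (-1.69), Trp53inp1 (1.44) and Txnip (1.35).

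Inputs known to act on the inhibitor and cyclin genes were read in the same way. FOXO factors are known to activate Cdkn1b. Of 12 genes of these factors and their other targets, 6 rose and 2 fell (median 0.10), against 13.3% higher calls over all tested genes. Of the factors, Foxo3 rose by 0.15 (limma adjusted p = 0.023), while Foxo1 (-0.00021) and Foxo4 (0.0025) did not pass. Txnip, an inhibitor of thioredoxin and glucose uptake, rose by 1.35 (2.54-fold), and Pik3ip1, an inhibitor of PI3 kinase, rose by 1.20 (2.30-fold). The 2 that fell were the antioxidant enzyme genes Sod2 (-0.34) and Cat (-0.11); the count of 2 became 1 in 5 of the 6 fits with 1 array left out, all but that without KO188 replicate 1. Of 11 TGF-beta response genes, 6 rose and 3 fell, with a median of 0.10. Those with the lowest p fell, Bhlhe40, a clock-linked repressor gene, by 0.46 and Skil, a brake on SMAD signalling, by 0.31. The count of 6 became 3 without any 1 of the 3 WT arrays or with median centring.

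Targets of p53 showed no common direction, with 5 higher, 5 lower and 9 not passing of 19 (median 0.0044). Trp53inp1, a stress response gene, rose by 1.44 (2.71-fold) and Sesn2, a regulator of mTOR complex 1, rose by 0.35. The count of 5 higher became 3 without WT replicate 2. Among 14 mitogen and Wnt inputs to D-type cyclin genes, 5 rose and 4 fell (median -0.04). Fosl1, an AP-1 subunit gene, fell by 0.27, and Tcf7l2, a mediator of Wnt signals, rose by 0.21. The 5 higher calls of this list became 2 without WT replicate 2 or 3, 3 when WT replicate 1, KO188 replicate 1 or KO188 replicate 3 was left out, and 2 with median centring.

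Marker genes were checked beside these counts. In the stromal list, the matrix genes Col1a1 (12.90 in WT and 13.11 in KO188) and Sparc (13.91 and 13.93) were bright in both groups. The mature osteoblast gene Ibsp (5.20 over the 6 arrays) and the stromal receptor gene Lepr (5.15) lay under the guide of 6.72. The surface marker genes Thy1 (6.84) and Eng (7.80) lay above it, Thy1 only just. Of the 13 measured markers of this list 7 rose, 1 fell and 5 did not pass. Over all tested genes 13.3% were called higher and 16.5% lower, the shares to set beside each marker list. Alpl, the alkaline phosphatase gene of bone-forming cells, had the largest change of the list, from 9.37 ± 0.03 (SD, n = 3) to 11.45 ± 0.03 in KO188, a 4.23-fold rise (log2 change 2.08, limma adjusted p = 8.6e-08). The others that rose were Postn (0.47), Cxcl12 (0.40), Sp7 (0.36), Col1a1 (0.20), Pdgfrb (0.15) and Col1a2 (0.14), and Nt5e fell by 0.85. Sp7, an osteoblast transcription factor gene, went from 6.41, under the guide, to 6.77, just above it, where RMA compresses changes. Ptprc, the pan-leukocyte marker, was at 6.24, also under the guide. Of 12 macrophage markers 1 rose (Mpeg1, 1.32), 11 did not pass and 8 lay at or under the guide. In this list 4 genes had an unadjusted limma p under 0.05. They were Mpeg1 and Cd68 (0.15), which were higher, and Cd14 (-0.27) and Itgam (-0.081), which were lower. Mpeg1 went from 5.72 in WT, under the guide, to 7.04 in KO188. The mean of the list was 6.56 to 6.58 on the WT arrays and 6.61 to 6.69 on the KO188 arrays. With a median change of -0.03, the list did not share this rise. Of 10 granulocyte markers 1 rose (Lcn2, 0.41) and 9 did not pass, with list means of 6.58 to 6.61 and 6.65 to 6.68. Of 9 endothelial markers 1 rose (Kdr, 0.24), and its list means of 6.62 to 6.63 and 6.58 to 6.65 overlapped. The Kdr call did not hold with median centring, nor when WT replicate 1, 2 or 3 or KO188 replicate 1 was left out. Of 9 measured lymphocyte genes 0 passed in limma and 0 had an unadjusted p under 0.05, with list means of 5.96 to 6.00 and 5.84 to 5.99. Of 7 erythroid and megakaryocyte markers 1 fell (Ppbp, -1.06) and 6 did not pass, with changes from -0.037 to 0.062. The list means, 7.50 to 7.54 in WT and 7.34 to 7.42 in KO188, thus fell through Ppbp alone. The part of other cell types, or of the change in osteoblast genes, in the changes of CDK inhibitor and cyclin genes was not tested. In such bulk samples, fewer cells of a type and less RNA per cell cannot be told apart.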

How the data were processed

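The authors deposited log2 values, 1 for every probe set on every array. Affymetrix Expression Console, Partek and RMA appear in the submitters' processing notes, without versions. RMA equalises array distributions on the log2 scale and compresses changes of dim genes. The authors' genome build was not given in the sources used here. Of 35556 probe sets, 21789 carried 1 symbol and 1621 several; the brightest single-symbol probe set per gene gave 19938 genes, with no filter on dim values. Array medians ran from 7.43 to 7.50. The number of arrays limits the precision. Groups came from the sample titles.

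The 3 KO188 arrays were set against the 3 WT arrays by limma (version 3.58.1, under R 4.3.3; linear fit and eBayes, no covariate), and p-values were adjusted over all tested genes by Benjamini-Hochberg. On simulated arrays of 19938 genes it found 10%, 74%, 100% and 100% of 50 genes each shifted by 0.15, 0.3, 0.6 and 1 (log2), with 1 false call among 143. Noise was drawn independently for each gene. Far fewer genes were shifted than the 29.8% called in the data. The Benjamini-Hochberg cutoff depends on that share, so these percentages do not give the detection rate here. Figures used matplotlib 3.10.9. Alternatives covered scaling, dim genes, variance model, probe set choice, replicate number and left-out arrays.

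The members, lists and the receptor guide were chosen with earlier results of these data known. Named genes were all members, the remaining INK4 genes, the 2 called genes of lowest p per pathway list, and the 3 nearest profiles of the members with the largest rise and fall (predicted genes skipped). Some genes behind counts of 5 or fewer, and the cell type markers named, were chosen after their values were seen. Levels of different genes were set against each other only through percentiles of mean level and the receptor guide. Such comparisons are rough, since the probes of the genes differ.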

Additional observations from a re-analysis of the deposited data

How the results depend on the processing

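Over the 15 alternatives (14 for Cdkn1c, which the stricter filter on dim genes leaves out), Cdkn1b, Cdkn2b, Cdkn2c, Ccnd3 and Cdk6 kept their calls. None of the 9 genes changed sign, though most alternatives could not change one. With quantile normalization Ccnd1 was at -0.066 (adjusted p = 0.14), and with 1 array left out it ran from -0.13 to -0.10. Ccnd2 ran from 0.083 to 0.12 with 1 array left out, was at 0.058 with median centring, and missed the threshold at 0.11 when each probe set was tested alone (adjusted p = 0.071). Cdk4 passed with median centring (-0.11) and with a variance trend (-0.061). The replicate numbers did not pair the samples: same-numbered arrays correlated at 0.018, 0.010 and -0.028 in their deviations from the group means. With the replicate block the Ccnd1 change of -0.12 (adjusted p = 0.079) and the Ccnd2 change of 0.11 (adjusted p = 0.11) no longer passed, and the counts over all genes were 2271 higher and 2748 lower in place of 2643 and 3294. Median centring gave 5126 lower and 1980 higher calls, a share of higher calls of 27.9% against 44.5%, and moved the median of all genes from -0.0053 to -0.057.

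Under median centring the higher calls fell to 0 among S phase targets, 0 among pocket and E2F genes, 3 in the TGF-beta list and 2 in the mitogen list, whose lower calls rose to 7. With the replicate block they were 0 for pocket and E2F genes, 3 for the TGF-beta list and 3 for the mitogen list, and the FOXO list had 1 lower call. The mitogen list also had 3 higher calls with quantile normalization and 3 with each probe set alone. With 1 array left out, lower calls ran from 0 to 1 for the other INK4 genes and from 1 to 2 for the FOXO list, and higher calls from 2 to 4 for the mitogen list, 3 to 5 for p53 targets, 0 to 1 for pocket and E2F genes and 3 to 5 for the TGF-beta list. Of 180 marker list counts, 21 moved by over 1.5 times. Median centring moved the change of every gene downward by the same amount. Where a call was lost in another fit, the cause was not tested, beyond the smaller number of arrays in the fits that leave 1 out.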
